A study of Mus musculus with 11 samples.

Results

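The RNA content of the mouse embryo at the 8-cell stage was described from the 6 control embryos of the series. These were chosen by their genotype label, *Prdm10* WT/HET, and make up 6 of the 11 embryos profiled. All genes in their tables were used, and the other 5 embryos were not analysed here. Every control was a C57BL/6 embryo at embryonic day 2.5, taken from the oviduct of a naturally mated *Prdm10*Δ/+ female that had been crossed with a *Prdm10*Δ/+ male. A control was either *Prdm10*+/+ or *Prdm10*Δ/+, and the labels do not say which, so that differences between these genotypes are part of the spread given below. The Δ allele lacks exon 5 of *Prdm10*, which was removed from a floxed allele by Cre under the ACTB promoter, and embryos were assigned to their group by qRT-PCR of this exon in their own cDNA. Each embryo gave 1 library, made by Smart-seq2, which copies polyadenylated RNA from an oligo-dT primer and amplifies it by PCR. Embryos were collected and processed in 2 batches: controls 4, 5 and 6 formed batch 1, with 16 cycles of pre-amplification, and controls 1, 2 and 3 formed batch 2, with 13 cycles. Batch, PCR cycles and the females used cannot be told apart. Which embryos were littermates is not given in the sources used here.

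At the 8-cell stage the mouse embryo has passed from stored maternal RNA to transcripts of its own genome, and cleavage divisions go on without growth of the embryo. Its blastomeres then flatten against each other through E-cadherin (compaction) and gain an outer apical and an inner basal side (polarity). The Hippo pathway later reads this asymmetry, and outer cells become trophectoderm while inner cells form the inner cell mass. The embryo feeds mainly on pyruvate at this time, and it turns to glucose later, towards the blastocyst.

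Levels are given as TPM, which scale each transcript to its length and to the whole library and so allow genes to be ranked within an embryo. The libraries held 3534735 to 7195942 expected counts, and 3 counts, the limit that a count of 0 allows, corresponded to 0.417 to 0.849 CPM (counts scaled to library size). These limits cover counting error only, since reads copied by PCR were counted separately. A single ribosomal RNA record, *CT010467.1*, took 5.09 to 7.94% of TPM, and mitochondrial genes took 9.88 to 15.3%. Summed with *AY036118*, which lies inside it, and *Gm42418*, the ribosomal RNA record reached 102606 TPM in control 1 and 50934 to 69099 in the other embryos. Control 1 stood apart from the other 5 embryos. Its correlations across genes with embryos of its own batch were 0.893 and 0.901, whereas other pairs within a batch had 0.930 to 0.940. With embryos of the other batch it had 0.864 to 0.881, and other pairs between batches had 0.887 to 0.910. The median of all pairs was 0.901. Several of the main values that rest on control 1 are therefore also given without it.

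Of the 54146 records in the tables, 8094 reached 1 TPM in all 6 embryos, 15827 reached it in at least 1 embryo, and 31409 had no count in any. Leaving out an embryo can only raise the first count, which was then 8188 to 8375, with 8375 without control 1. The number at 1 TPM or more was 10777 to 11627 per embryo (mean 11269 ± 314, SD, n = 6). Most of the records seen in every embryo were protein-coding. These numbered 7432 of 21906 (33.9%), whereas 10112 (46.2%) stayed under 1 TPM throughout. Only 245 of 12717 long noncoding records and 365 of 12854 pseudogenes were at 1 TPM or more in all 6 embryos. The highest long noncoding record without extensive shared sequence was *Gas5*, a host of small nucleolar RNAs, at 588 ± 171 TPM (SD, n = 6). Levels spanned several orders of magnitude: 5259 protein-coding genes had a mean of 10 TPM or more, 1322 of 100 or more and 143 of 1000 or more. The 100 highest records held 40.5% ± 3.09 of all TPM (SD, n = 6), from 36.3 to 44.2% per embryo.

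The highest nuclear protein-coding gene was *Dppa3* (chromosome 6, 122626410 to 122630272, plus strand, GRCm38), the maternal factor that protects the maternal genome from loss of DNA methylation. Its TPM in controls 1 to 6 was 5323, 5603, 5987, 4240, 4545 and 5097, and no embryo lay far from the rest. *Npm1*, a nucleolar chaperone of ribosome assembly, was at 4530 ± 1192 TPM (SD, n = 6). Both share sequence with other genes: 29.6% and 29.4% of their 31-base words occurred elsewhere in the annotated transcripts, so their reads may have been divided between copies.

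Ribosomal protein genes made up 7 of the highest 20, with *Rpl41* highest at 4698 ± 686 TPM and *Rplp1*, *Rpl7*, *Rps19* and *Rpl19* at means of 2745 to 3118. *Rpl10-ps3*, a copy of *Rpl10* that the annotation calls protein-coding, had 2902 ± 819 TPM, with 96.6% of its sequence words shared. The membrane-bound ubiquitin-like proteins of autophagosomes were represented by *Map1lc3b* (4767 ± 930) and *Gabarapl2* (3452 ± 764). *Tmem41b*, which encodes an endoplasmic reticulum scramblase needed for autophagosome formation, had 3520 ± 483 TPM. The chaperone gene *Hspa8* had 3779 ± 946 TPM, and *Sugt1*, a co-chaperone of HSP90, had 2769 ± 338. *Sumo2* (3513 ± 634) encodes a ubiquitin-like modifier, *Eloc* (3399 ± 397) an adaptor of ubiquitin ligases, and *Fbxo15* (4141 ± 791) an F-box protein of pluripotent cells. The remaining genes encode surface proteins. *Timd2*, a ferritin receptor, had 3327 ± 537 TPM, and the alkaline phosphatase *Alppl2* had 1383, 1758, 1183, 5356, 4797 and 3752 TPM in controls 1 to 6. *Alppl2* was thus higher in every embryo of batch 1 than in any of batch 2.

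**Figure D1:**
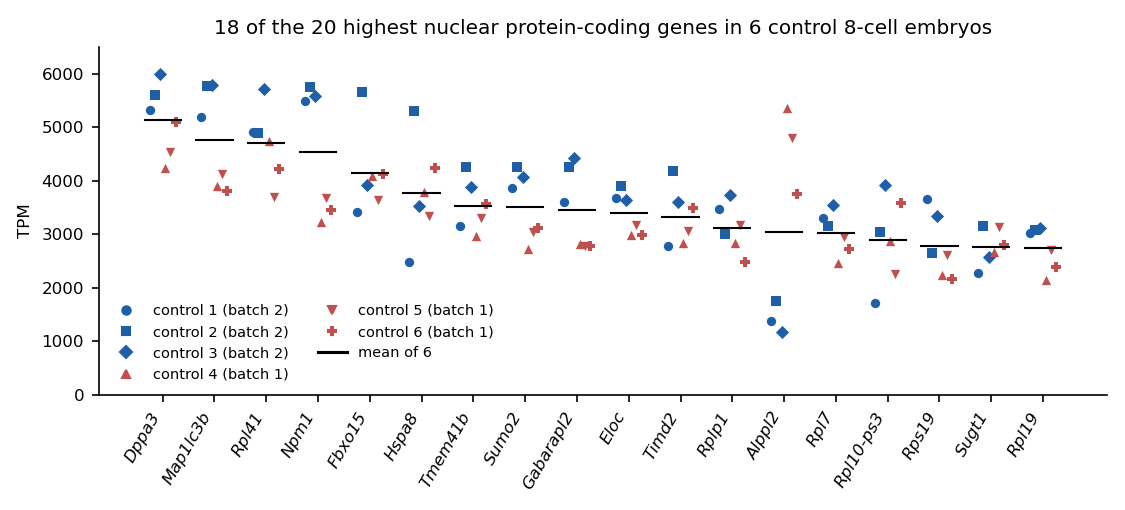
TPM (linear axis) in the 6 control embryos of 18 of the 20 nuclear protein-coding genes with the highest mean. Each point is an embryo, coloured by batch, and the black line is the mean of 6; *Alppl2* shows the 2 batches apart, at 1183 to 1758 and 3752 to 5356 TPM.

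Promoter sequence was available for 10 of these 20 genes, and 5 are shown, chosen after their motifs were seen so that each combination of the CTTCCG and GGGCGG motifs found in these 10 windows appears. Each line gives the 100 bases before the RefSeq start (GRCm38.p6), 5′ to 3′ on the gene's strand, and capitals mark the CCAAT box, the GC box GGGCGG, the ETS core CTTCCG or the TATA box TATAAA on either strand. The first 3 are rich in CpG, and the last 2 are not.
Map1lc3b (chr8:121590338-121590437, plus strand): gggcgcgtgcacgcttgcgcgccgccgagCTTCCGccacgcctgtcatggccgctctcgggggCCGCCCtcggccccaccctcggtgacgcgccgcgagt
Tmem41b (chr7:109986231-109986330, minus strand): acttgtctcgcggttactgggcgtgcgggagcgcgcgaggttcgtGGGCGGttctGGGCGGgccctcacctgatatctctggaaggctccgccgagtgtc
Rpl19 (chr11:98026610-98026709, plus strand): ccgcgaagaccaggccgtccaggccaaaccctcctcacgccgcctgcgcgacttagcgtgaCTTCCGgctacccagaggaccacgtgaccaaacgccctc
Timd2 (chr11:46707105-46707204, minus strand): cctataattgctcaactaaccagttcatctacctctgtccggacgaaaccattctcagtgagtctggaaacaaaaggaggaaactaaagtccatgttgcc
Alppl2 (chr1:87089929-87090028, minus strand): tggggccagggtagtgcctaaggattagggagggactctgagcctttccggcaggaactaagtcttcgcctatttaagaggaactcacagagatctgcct

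ETS factors recognise CTTCCG and SP factors GGGCGG. *Map1lc3b* held both motifs and 18 CpG, as 1 of 3 such windows among the 10. *Tmem41b*, with 12 CpG, was 1 of 4 that held GGGCGG without CTTCCG, and *Rpl19*, with 11 CpG, was the only one that held CTTCCG without GGGCGG. *Timd2* and *Alppl2* had 2 CpG each and none of the 4 motifs. Over the 16513 genes with a promoter, out of 21877 nuclear protein-coding symbols, the median was 10 CpG in the 250 bases before the start. It was 3 for genes under 1 TPM in all 6 embryos and 17 to 18 for genes found in all. CTTCCG or its reverse complement occurred in 17.8% of all promoters and in 6.91% of those of undetected genes. Among genes found in all embryos its share was higher at each higher level: 28.0% at means of 1 to 10 TPM, 32.6% at 10 to 100, 34.9% at 100 to 1000 and 41.7% above (40 of 96). It was present in 33 of 65 ribosomal protein promoters (50.8%). How many of the 96 promoters of the top level were ribosomal was not counted, so its share may reflect this family. GGGCGG occurred in 44.3% of all promoters and 26.5% of those of undetected genes. Among genes found in all, its share was lower at each higher level (62.9, 61.4, 59.5 and 56.3%). TATAAA was more frequent in promoters of undetected genes (19.0%) than in all (11.9%) or in those of genes found in all (4.17 to 7.14%). CCAAT differed little between all promoters, undetected genes and genes found in all (36.0%, 34.4% and 34.4 to 38.7%). The last 3 letters of GGGCGG can be the first 3 of CGGAAG, so the counts of these 2 motifs may overlap. The shares describe letters and do not show binding.

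Among single records, those of the mitochondrial genome were the highest after the ribosomal RNA record. The 13 protein-coding genes summed to 85105 to 136001 TPM per embryo, led by *mt-Atp6* at 24479 ± 5579 and *mt-Atp8* at 15520 ± 4549 (SD, n = 6), both subunits of ATP synthase. *mt-Atp8* was 24372 in control 6 and 12124 to 15653 in the other 5 embryos. The large ribosomal RNA *mt-Rnr2* had 14877 ± 3271 TPM. Chromosome 1 carries a near copy of part of this genome, and 7 records there shared 97.2 to 100% of their sequence words with a mitochondrial gene. *mt-Co3*, a subunit of cytochrome c oxidase, was listed at 506, 1704, 954, 374, 7.67 and 18.6 TPM in controls 1 to 6, a within-batch SD of 2.12 on the log2 scale. Its chromosome 1 copy *Gm28437* took 2740 to 6060. Their sum was 6566, 4923, 6208, 3115, 3030 and 4092 TPM, with a within-batch SD of 0.23.

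All 5 genes fixed as markers of the stage were at 1 TPM or more in each of the 6 embryos. *Pou5f1*, which encodes the pluripotency factor OCT4 (chromosome 17, 35506018 to 35510772, plus strand), was at 34.2, 87.3, 86.3, 265, 225 and 106 TPM in controls 1 to 6. *Tfap2c*, an AP-2 factor that acts at compaction and in trophectoderm, was at 34.4, 50.4, 45.1, 123, 108 and 75.4. The lowest *Tfap2c* value of batch 1 lay above the highest of batch 2, and the same held for *Pou5f1*. *Klf5*, a Krüppel-like factor of both the inner cell mass and the trophectoderm, varied least of the 5, at 80.2, 112, 92.6, 123, 95.1 and 80.3 TPM, and its batches overlapped. *Cdh1*, the gene of E-cadherin, was at 10.7, 20.1, 18.8, 30.8, 22.9 and 16.0. *Krt18*, a keratin of the trophectoderm, was barely expressed. It had 6.36 TPM (52 counts) in control 1 and 1.14 to 2.16 TPM (5 to 16 counts) in the other embryos, with a mean of 2.61 ± 1.87 (SD, n = 6) and 1.86 without control 1. Its partner *Krt8* was at 2.27 ± 1.79 TPM and lowest in control 1, at 0.35.

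**Figure D2:**
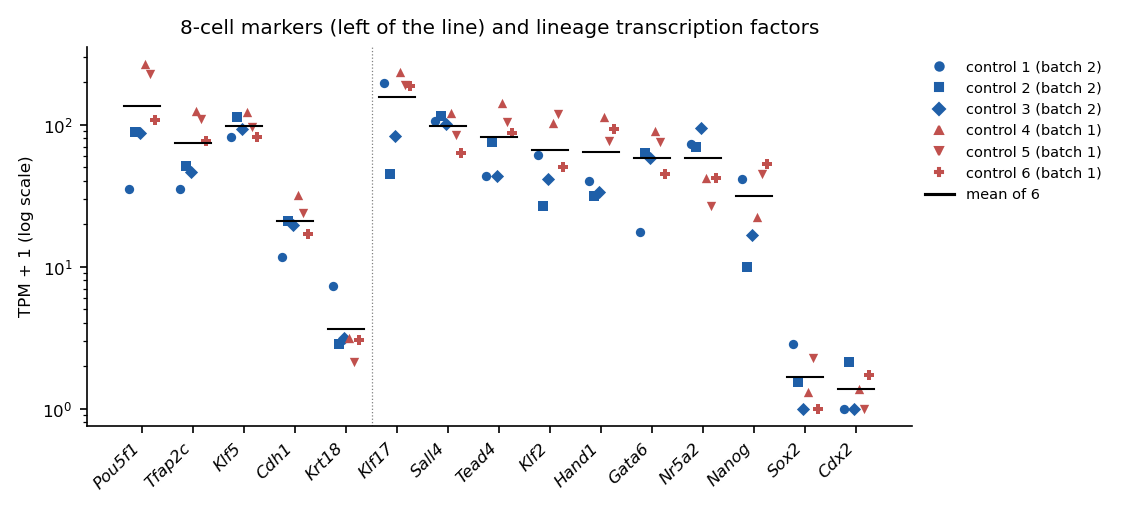
TPM + 1 (log axis) of the 5 marker genes, left of the line, and of lineage transcription factors in the 6 control embryos. Each point is an embryo, coloured by batch, and the black line is the mean of 6; *Klf5* keeps within 80.2 to 123 TPM, while *Sox2* and *Cdx2* lie at the bottom.

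Most pluripotency factors were present. Of 16 on the list, 14 were at 1 TPM or more in all 6 embryos, and their median was 33.1 TPM against 0.48 over all protein-coding records. The highest was *Klf17*, a zinc-finger factor of early cleavage, at 195, 43.8, 82.0, 233, 190 and 186 TPM. *Sall4*, a zinc-finger partner of OCT4, had 96.9 ± 20.8 TPM, *Klf2* 65.5 ± 36.1 and the nuclear receptor gene *Nr5a2* 57.0 ± 25. *Nanog* was at 40.2, 8.86, 15.8, 21.5, 44.1 and 52.1 TPM, with overlapping batches. *Sox2* was low, at 1.85, 0.54, 0, 0.31, 1.26 and 0 TPM.

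Regulators of the later lineages differed widely in level. Each library pooled all cells of an embryo, so that fewer cells with a transcript and less of it per cell cannot be told apart. For trophectoderm, 5 of 11 were at 1 TPM or more in all embryos and 5 were under 1 TPM in each. *Tead4*, the DNA-binding partner of YAP, had 81.3 ± 37.4 TPM and *Hand1*, a trophoblast helix-loop-helix factor, 63.5 ± 34.6. *Gata3* reached 3.58 ± 1.64, whereas *Cdx2* had 0.373 ± 0.475 TPM and passed 1 TPM in control 2 alone (1.14), and *Eomes*, *Elf5* and *Gata2* had no count in any embryo. For primitive endoderm, *Gata6* (57.1 ± 25.2) and *Gata4* (34.0 ± 29.7) were present in all. *Gata4* was at 16.4, 14.9, 7.99, 66.4, 76.9 and 21.2 TPM in controls 1 to 6, again with all of batch 1 above batch 2. *Sox17*, *Sox7*, *Foxa2* and *Hnf4a* stayed under 1 TPM. Of 16 genes of the germ layers and nervous system, 9 stayed under 1 TPM in every embryo, including *T*, the primitive streak gene, at 0 counts, but the erythroid factor *Gata1* was at 55.1 ± 33.7 TPM, *Pax6* at 18.5 ± 14.5 and *Mixl1* at 11.2 ± 2.82. No *Hox* gene reached 1 TPM in all embryos, and 36 of 39 stayed below it in each.

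The machinery of compaction was present, in part at low levels. Of 20 adhesion and junction genes, 13 were at 1 TPM or more in all 6 embryos, with a median of 18.3 TPM. The tight junction gene *Cldn7* was highest (184 ± 138 TPM), followed by *F11r* (109 ± 50.6), which encodes the junctional molecule JAM-A, and *Cldn4* (89.3 ± 43.2). The catenins that link E-cadherin to actin were at 66.8 ± 15.9 for *Ctnnb1* and 37.3 ± 9.24 for *Ctnna1*. Desmosomal *Dsc2*, *Dsp* and *Dsg2* stayed under 1 TPM. Of 18 polarity genes, 15 were found in all, with a median of 5.97 TPM. The GTPase *Cdc42* had 338 ± 45.5 TPM and the apical membrane protein gene *Crb3* 202 ± 72.1, and *Mark2*, a basolateral kinase, had 43.0 ± 17.0. The apical PAR complex was lower, with *Pard6b* at 4.66 ± 1.60, *Pard3* at 3.70 ± 1.40 and *Prkci* at 3.68 ± 0.801 TPM, and *Pard6g* stayed under 1. In the Hippo pathway, 12 of 18 genes were found in all (median 7.69 TPM). *Mob1a*, a cofactor of the LATS kinases, was at 69.6 ± 10.9 and *Nf2*, an upstream activator, at 37.5 ± 17.8. The coactivators *Wwtr1* and *Yap1* were at 18.9 ± 6.09 and 16.8 ± 5.26, and *Tead3* was under 1 TPM throughout. Cytoskeletal genes were led by *Actb* (740 ± 251), *Pfn1* (503 ± 111) and *Cfl1* (488 ± 25.4). *Vim*, *Krt7* and *Krt19* had means of 0.642 to 0.755 TPM.

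Of genes whose RNA the oocyte stores, some were high at this stage and others were at traces. Of 17 maternal effect genes, 12 were at 1 TPM or more in all embryos (median 6.70 TPM), with *Dppa3* and *Trim28*, the corepressor that keeps imprints (531 ± 124), far above the rest, and *Zar1* under 1 TPM throughout. In the subcortical maternal complex, an oocyte protein assembly, *Khdc3* had 16.3 TPM in control 1 and 96.2 to 192 in the others (mean 130 ± 65.4, and 153 without control 1). *Padi6* was at 19.8 ± 8.87 and *Nlrp5* at 3.47 ± 2.08. The oocyte markers *Zp3* (34.8 ± 7.85) and *Oosp1* remained detectable. *Oosp1* was at 48.3, 21.9, 2.28, 2.89, 6.24 and 5.54 TPM, highest in control 1, and its mean of 14.5 ± 18.1 was 7.77 without that embryo.

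Genes of the 2-cell stage and of genome activation had a median of 0.755 TPM, and 7 of 25 were found in all embryos. The homeobox gene *Obox6* (1682 ± 273 TPM) and *Sp110* (734 ± 232) were exceptions, as was the initiation factor gene *Eif1a* (202 ± 40.9). The *Zscan4* members *Zscan4c* and *Zscan4d*, which mark the 2-cell stage, had 0.0617 and 0.410 TPM. These genes shared 91.5% and 65.0% of their sequence words, and the median share over the list was 60.3%, so values of single members are uncertain. Among chromatin genes, 9 of 11 of Polycomb repressive complex 2 were found in all (median 110 TPM), led by *Mtf2* (375 ± 128), *Rbbp7* (307 ± 122) and *Eed* (228 ± 51.9), and the methyltransferase *Ezh2* had 117 ± 24.4 TPM. DNA methylation enzymes were lower (6 of 9, median 8.62 TPM). *Tet1*, which oxidises methylcytosine, was at 28.5 ± 11.3, and the methyltransferase genes *Dnmt3a* and *Dnmt1* were at 23.9 ± 7.96 and 9.35 ± 3.99.

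Of the nuclear gene lists, those of translation, folding and protein breakdown had the highest medians. The 86 cytosolic ribosomal protein genes had a median of 1413 TPM and held 12.4% of all TPM, and 85 of them were found in every embryo. All 35 translation initiation and elongation factors were found in all (median 392 TPM), led by *Eef1a1* (2210 ± 272), *Eif5a* (2173 ± 424) and *Eif1* (1764 ± 518). Heat shock and chaperonin genes had a median of 383 TPM, with *Hspa8*, *Hsp90aa1* (2431 ± 914) and *Hsp90ab1* (2206 ± 553) highest. The stress-inducible *Hspa1b* stayed under 1 TPM. Proteasome subunits had a median of 267 TPM (35 of 39 in all embryos), with *Psma6* at 911 ± 95.3. The 2 members under 1 TPM were *Psmb11*, the thymus form, and *Psma8*, the testis form.

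Energy genes differed by pathway. Nuclear genes of oxidative phosphorylation had a median of 130 TPM, and 89 of 95 were found in all, with *Atp5b* at 1411 ± 280, *Atp5g1* at 1033 ± 189 and *Cox4i1* at 1027 ± 109. Genes of glucose and pyruvate metabolism had a median of 12.1 TPM, and 17 of 25 were found in all. Those that bring pyruvate into the mitochondrion and oxidise it were at the top (*Mpc1* 590 ± 162, *Pdhb* 360 ± 88.4, *Mpc2* 322 ± 64.2). Glycolytic *Hk1* (11.5 ± 6.87), *Hk2* (5.80 ± 5.54) and *Gapdh* (9.53 ± 3.51, 28.1% of sequence words shared) were low. They are examples named after their values were seen and do not stand for all of glycolysis. The glucose transporter *Slc2a1*, the phosphofructokinases *Pfkm* and *Pfkp* and the pyruvate carrier *Slc16a7* stayed under 1 TPM in every embryo. *Slc2a3*, another glucose transporter gene, had enough counts to be tested between batches. It was called higher in batch 1 (log2 difference 2.02, edgeR adjusted p = 0.00686), and the call was lost without control 5 (0.0635). *Pdha1*, the catalytic subunit of pyruvate dehydrogenase, was at 43.0 TPM in control 1 and 161 to 227 in the others. Of 10 genes of fluid transport, used later to form the blastocyst cavity, 7 were found in all. The sodium pump subunit *Atp1b3* had 194 ± 43.9 TPM, *Aqp9* 72.5 ± 30.8 and *Aqp11* 50.02 ± 21.7, while *Aqp8*, *Slc9a2* and *Slc9a3* stayed under 1 TPM.

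Cell cycle genes were led by the mitotic pair *Ccnb1* (1370 ± 265) and *Cdk1* (875 ± 165), with *Ccna2* at 480 ± 109. *Ccnd1* was at 2.96 ± 1.87 TPM, and *Cdk6* and *Ccna1* were under 1 TPM throughout. Growth factors and their receptors were sparse, with 7 of 20 in all embryos and 10 under 1 TPM in each (median 0.313 TPM). The NODAL coreceptor *Tdgf1* (80.1 ± 24.3), *Fgfr2* (41.6 ± 18.3) and *Igf2r* (39.4 ± 17.5) were highest. *Fgf4*, the signal between inner cells later on, had 12.4 ± 5.05, and *Nodal*, *Igf2* and *Bmp4* had no count. Replication-dependent histone RNAs mostly lack a poly(A) tail, so an oligo-dT primer copies few of them. Histone genes had a median of 0.63 TPM over 98 members, yet *Hist1h2ap* was at 2657 ± 787, with 93.4% of its sequence words shared. The variant genes *H3f3a* (2058 ± 344) and *H2afz* (1327 ± 337) were next.

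**Figure D3:**
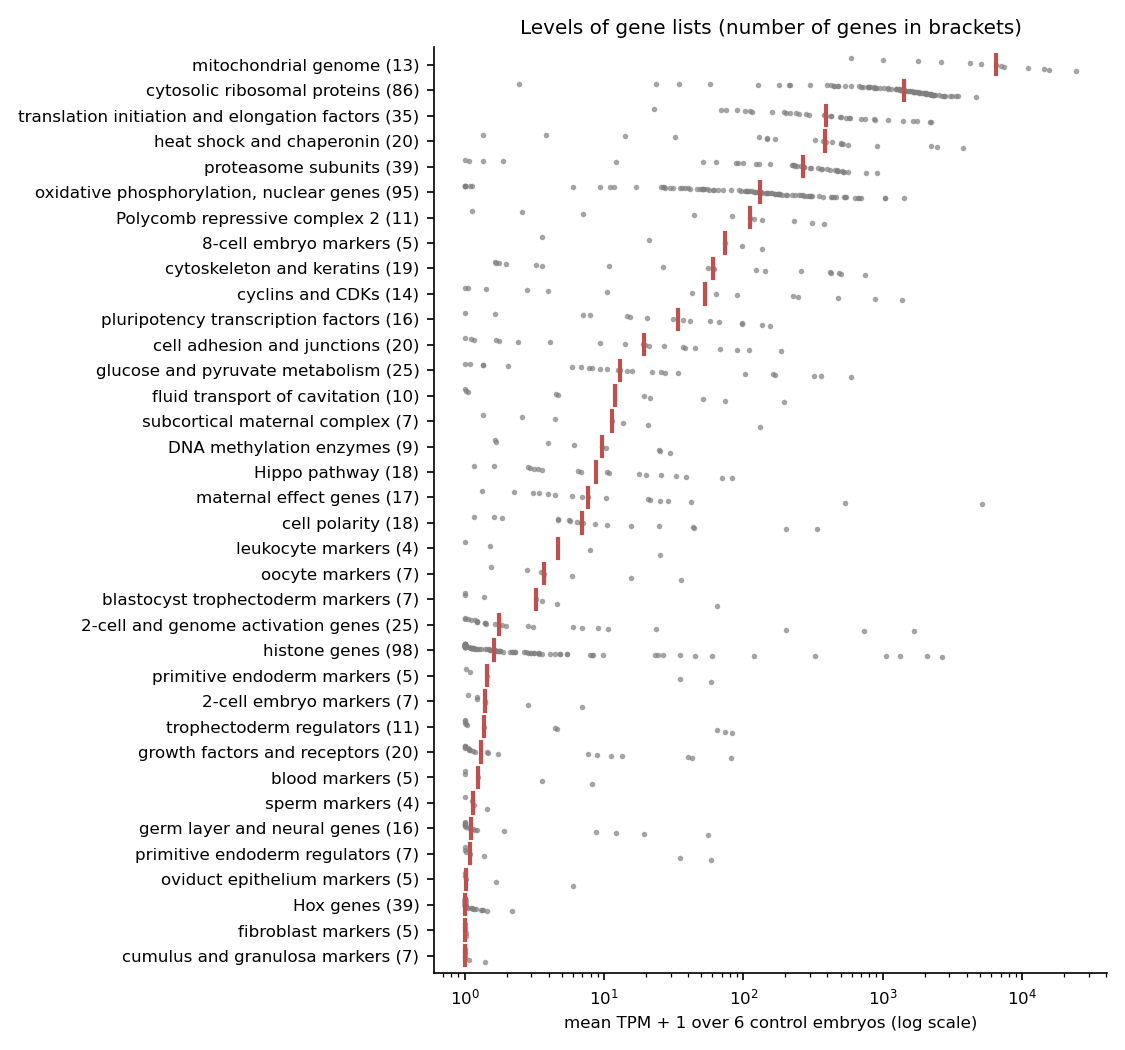
Mean TPM + 1 over the 6 control embryos (log axis) for the genes of each list, with the number of genes in brackets. Medians run from 0 TPM for *Hox* genes to 1413 for cytosolic ribosomal proteins and 6475 for the 13 protein-coding genes of the mitochondrial genome.

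The spread between embryos was measured as the SD of log2(TPM + 1) within batches, for 5490 genes with a mean of at least 10 TPM and 50 counts. Its median was 0.36. It was smaller for higher genes, at 0.44, 0.35, 0.28, 0.24 and 0.20 for means of 10 to 30, 30 to 100, 100 to 300, 300 to 1000 and above 1000 TPM. Counting error of the reads alone would give 0.13, 0.078, 0.051, 0.033 and 0.019. Reads copied by PCR were counted separately, so these values leave out the sampling of the original RNA molecules. The edgeR biological coefficient of variation, common to all genes and with batch as a term, was 0.435 (0.367 without control 1). The median SDs over all genes, by level and by list were not computed without control 1. Pairs of embryos had a median correlation of 0.931 within a batch (6 pairs) and 0.891 between batches (9 pairs), across genes that are not independent.

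By list, the smallest median SDs were those of ribosomal proteins (0.17), proteasome subunits (0.18), chaperones (0.22) and translation factors (0.23). Nuclear genes of oxidative phosphorylation had 0.25. Pluripotency factors had 0.54 over 12 genes and adhesion genes 0.45 over 12, but these lists also held lower levels.

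**Figure D4:**
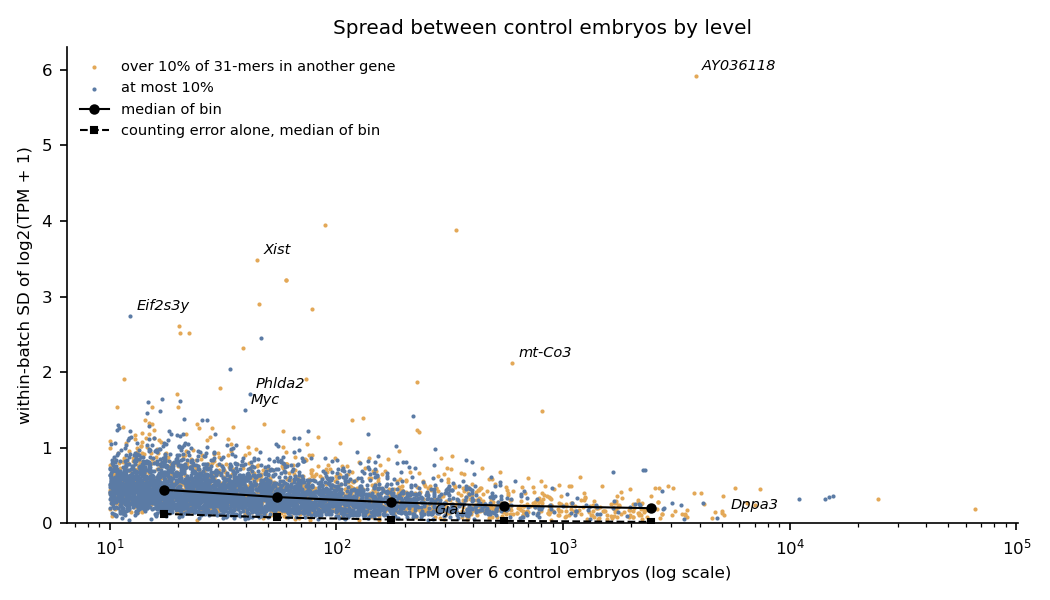
Within-batch SD of log2(TPM + 1) against mean TPM (log axis) for 5490 genes, coloured by whether over 10% of a gene's 31-base words occur in another gene. The black line, the median by level, falls from 0.44 to 0.20 and stays above the dashed line for counting error of the reads alone, 0.13 to 0.019. That error leaves out the sampling of the original RNA molecules.

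Of the 10 most variable genes, 8 were records with 100% of their sequence words in another gene, so that a division of reads that changed from embryo to embryo cannot be told apart from a change in RNA. An example is *AY036118*, which was listed at 23100 TPM in control 1 and 0 in the others and lies inside the ribosomal RNA record. The sum of *CT010467.1*, *AY036118* and *Gm42418* was 102606 TPM in control 1 and 50934 to 69099 in the others. Its within-batch SD was 0.30 on the log2 scale, and control 1 was still the highest. The remaining ones of the 10 most variable genes were *Xist* and the Y-linked *Eif2s3y*. Genes sharing over 10% of their sequence were then left out, a choice made after seeing the data, and the 10 most variable were found to hold *Eif2s3y*, *Grtp1*, *Phlda2*, *Myc*, *Aqp3* and *Oosp1*. *Phlda2*, an imprinted gene of placental growth, was at 156, 21.5, 8.35, 43.6, 8.65 and 10.3 TPM. *Myc*, the growth-related transcription factor, was at 3.84, 75.7, 38.6, 45.2, 45.9 and 26.9 TPM. The water channel *Aqp3* was at 1.28, 32.8, 19.9, 23.6, 36.2 and 9.15. In *Phlda2*, *Myc* and *Aqp3*, control 1 was the extreme embryo. Without it, their within-batch SD on the log2 scale was 1.12 in place of 1.71 for *Phlda2*, 0.52 in place of 1.5 for *Myc* and 0.83 in place of 1.62 for *Aqp3*. None of these 10 genes was then among the 10 most variable with little shared sequence, and *Eif2s3y* and *Oosp1* fell below the minimum level, whereas 8 to 10 remained when any other embryo was left out.

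The least variable genes included *Gja1*, which encodes the gap junction protein connexin 43. It was at 243, 252, 261, 258, 258 and 248 TPM (mean 254 ± 6.85, SD, n = 6), with 1.35% of its sequence shared. *Ccdc9* was as even at a lower level (12.2 ± 0.343), and *Eloc* was even within each batch (3648 to 3909 in batch 2, 2988 to 3178 in batch 1). Which genes came last depended on 4 degrees of freedom, and 1 to 3 of these 10 were among the 10 least variable when an embryo was left out.

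Over all 5490 genes, 253 (4.61%) had 1 embryo far from the other 5 by Dixon's criterion. Chance gives 1 in 20 for embryos that do not differ by batch. These embryos came from batches that differed, so the share that chance gives here is not known. The 253 genes were unevenly placed: control 1 was the far embryo for 122 genes, 92 of them low, and each other embryo for 17 to 40. Besides *Myc*, genes named after their values were seen included *Id3*, an inhibitor of helix-loop-helix factors, at 26.0 TPM in control 1 and 176 to 351 elsewhere, and the zinc-finger gene *Zfp296*, at 31.6 and 206 to 331.

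The summed markers of leukocytes, oviduct and blood were highest in control 1, and those of cumulus and granulosa cells, fibroblasts and sperm were not. The summed TPM of the 4 leukocyte markers was 129, 18.7, 15.1, 11.2, 4.79 and 11.97 in controls 1 to 6. Of these, the lysozyme gene *Lyz2* gave 121, 15.7, 9.77, 0, 0 and 0 TPM, *Cd68* was found in every embryo, *Ptprc* had a mean of 0.522 and *Cd3e* was at 0. The oviduct list summed to 25.2, 5.83, 1.59, 1.02, 0.43 and 0.29 TPM. *Ovgp1*, the oviductal glycoprotein, made up 24.2 TPM in control 1, while the defining factors *Foxj1*, *Pax8* and *Wt1* were under 1 TPM in each embryo. The blood list summed to 30.7, 10.4, 10.2, 1.71, 5.42 and 1.78, nearly all from α-globin genes, and both β-globin genes had no count. Cumulus and granulosa (0 to 1.28), fibroblast (0 to 0.29) and sperm markers (0 to 1.93) were at traces. The part of such RNA in the other values of control 1 was not tested.

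Sex-linked genes set the embryos apart. *Xist*, the RNA that coats the inactive X chromosome, was at 0, 81.8, 96.9, 42.2, 0 and 47.8 TPM in controls 1 to 6 (chromosome X, 103460366 to 103483254, minus strand). The Y-linked *Eif2s3y*, an initiation factor gene, was at 27.2, 15.7, 0, 0, 31.1 and 0 TPM, and *Ddx3y*, a Y-linked helicase gene, at 5.60, 1.93, 0, 0, 8.48 and 0. *Kdm5d* and *Uty* had means of 0.828 and 0.210 TPM. Controls 1 and 5 thus held Y-linked RNA without *Xist*, controls 3, 4 and 6 the reverse, and control 2 held both. X-linked genes took 1.75, 2.85, 3.27, 3.0, 1.69 and 3.10% of TPM. The median of 199 X-linked coding genes divided by that of 7219 autosomal genes was 0.837, 1.12, 1.31, 1.24, 0.733 and 1.32, so that both measures were lowest in the embryos without *Xist*. *Tsix*, which overlaps *Xist* on the other strand, moved with it (0.46, 33.7, 53.4, 16.2, 0.81 and 29.0 TPM), and these libraries do not tell strands apart.

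**Figure D5:**
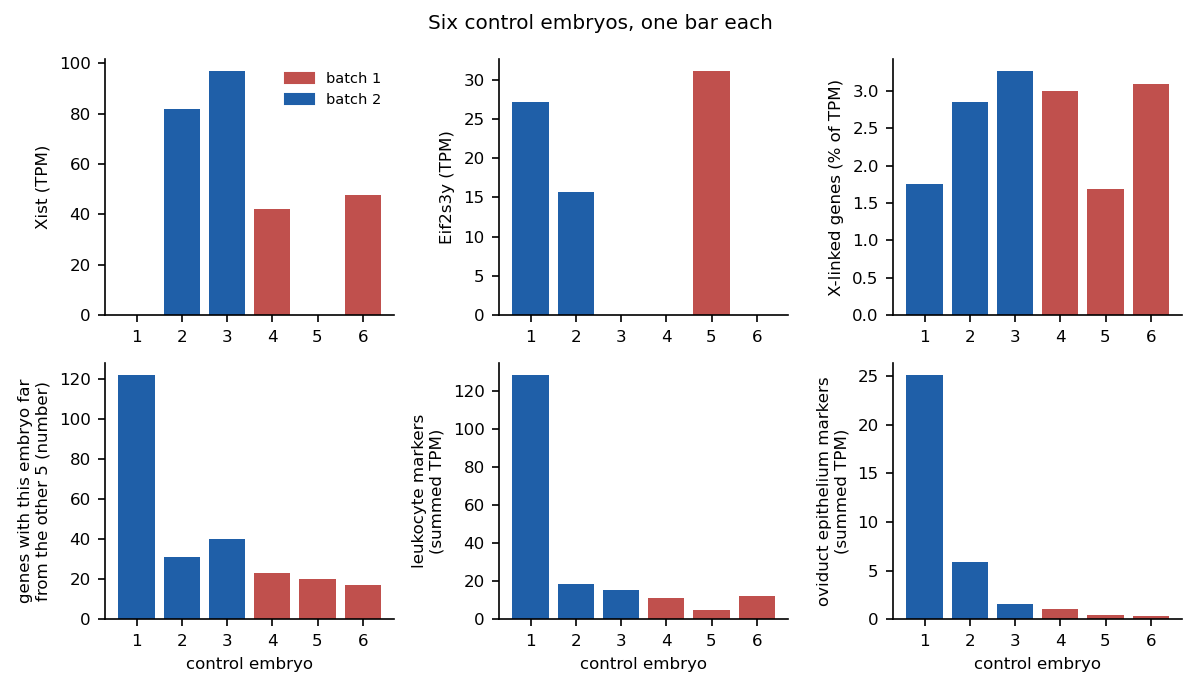
A bar for each control embryo, coloured by batch, showing *Xist* and *Eif2s3y* (TPM), the share of TPM from X-linked genes (%), the number of genes for which that embryo lay far from the other 5, and the summed TPM of leukocyte and oviduct markers. Controls 1 and 5 have no *Xist* and the lowest X-linked shares, 1.75 and 1.69%, and control 1 has the most far genes, 122, and the highest leukocyte and oviduct sums.

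Part of the spread followed the batches. With edgeR's quasi-likelihood test, 740 of 10625 genes (6.96%) differed between batches at an adjusted p under 0.05, with 387 (3.64%) higher in batch 1 and 353 (3.32%) higher in batch 2. The limma test on log2(TPM + 1) gave 479, of which 74.7% were higher in batch 1, against 52.3% by edgeR. The count rested on single embryos: it was 916 without control 1, 360 without control 2, 252 without control 3, 164 without control 4, 520 without control 6 and only 9 without control 5. The calls below are therefore those of all 6 embryos, and 41 of the 50 named genes that were called lost the call without control 5. *mt-Rnr1*, the small mitochondrial ribosomal RNA, shared the smallest adjusted p with *Gm28438*, *Ugcg* and *Nufip2*. It was at 3643, 3654 and 4851 TPM in batch 2 and 1008, 889 and 1119 in batch 1 (log2 difference −2.24 ± 0.22, SE, adjusted p = 0.00221). *Gm28438*, a near copy of *mt-Nd3*, was listed at 0, 0 and 10.5 TPM in batch 2 and 1146 to 2338 in batch 1.

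Of the other genes with the smallest p-values, those higher in batch 2 included *Ugcg*, which makes glucosylceramide (115 to 168 TPM against 29.0 to 43.9), the apoptosis inhibitor *Birc6* (115 to 140 against 33.0 to 50.4), *Bach1*, *Nufip2* and *Fam208b*, the last 3 by 1.85 to 2.72 on the log2 scale. Those higher in batch 1 included *Mta2*, a subunit of the NuRD deacetylase complex (82.7 to 161 TPM against 18.4 to 25.8), *4930432K21Rik* (74.9 to 150 against 12.2 to 17.7) and the matricellular gene *Ccn1* (27.6 to 33.4 against 1.13 to 2.66). Of the 20 highest genes, *Alppl2* was higher in batch 1 (log2 difference 1.46 ± 0.18, adjusted p = 0.00409 by edgeR), and *Npm1*, *Map1lc3b*, *Sumo2* and *Gabarapl2* were higher in batch 2, by 0.68 to 0.80 on the log2 scale.

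Among the markers, *Tfap2c* was called higher in batch 1 (0.99 ± 0.24, edgeR adjusted p = 0.0374), and this was lost without control 1 (adjusted p = 0.0541) and without control 5 (0.156). *Pou5f1* differed by 1.29 ± 0.43 without passing the test (adjusted p = 0.0939 by edgeR). *Hand1*, *Gata4* and *Pax6* were higher in batch 1, and *Nr5a2* was higher in batch 2. Of 85 ribosomal protein genes tested, 1 was called, *Rpl23*, against 6.96% of all genes, with a median log2 difference of −0.48 against −0.02 over all genes. Of 19 histone genes, 4 were called higher in batch 2, against 3.32% of all genes. Without control 1, *H2afz* (edgeR adjusted p = 0.0357) and *Hist1h1b* (0.0447) kept their calls, while *Rpl23* (0.0594), *Hist1h4d* (0.0574) and *Hist2h3c2* (0.0960) lost theirs. All 5 were lost without control 5. *Lyz2*, *Ovgp1*, *Hba-a2* and *Tmsb4x*, which were highest in control 1, were called higher in batch 2. Without control 1, *Lyz2* kept its call (edgeR adjusted p = 0.00396), and *Ovgp1* (0.112), *Hba-a2* (0.0581) and *Tmsb4x* (0.0604) lost it. Without control 5, all 4 lost the call, *Lyz2* with an edgeR adjusted p of 0.0661.

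*Prdm10* itself (chromosome 9, 31280538 to 31381723, plus strand), a zinc-finger transcription factor gene of the PRDM family, was expressed in each control embryo. It was at 16.1, 24.8, 14.2, 17.6, 11.1 and 15.0 TPM in controls 1 to 6, a mean of 16.5 ± 4.62 (SD, n = 6). Reads from a Δ allele outside exon 5 would count towards this value, and the 6 levels gave no gap that would tell wild-type from heterozygous embryos. Its batches overlapped (log2 difference −0.70 ± 0.33, edgeR adjusted p = 0.217).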

How the data were processed

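RNA was measured in single embryos, 6 controls in 2 batches of 3. The authors mapped 75-base single-end reads to GRCm38.p6 with STAR 2.6.0c and quantified GENCODE genes with RSEM. The deposited tables give expected counts, in which a read that maps to several genes is split by estimated probability so that values can be fractional, and TPM, which correct for length and depth. Both depend on how RSEM divided shared reads and on effective length. Neither molecular identifiers nor strand were used. The table of the authors' own comparison (fold changes and p-values) was not used here.

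Here, symbols and coordinates were taken from the GENCODE release vM21 annotation on GRCm38 (54079 of 54146 records matched). Detection was set at 1 TPM, and log values used a pseudocount of 1 TPM. Expected counts were rounded to whole numbers, filtered with filterByExpr, scaled by TMM and tested between batches with the edgeR 4.0.16 quasi-likelihood test (Benjamini-Hochberg adjusted p, threshold 0.05) in R 4.3.3. DESeq2 1.42.0 and limma 3.58.1 were alternatives. SE is the log2 difference divided by the square root of F. The scripts were tested on simulated data. Shared sequence is the percentage of a gene's 31-base words found in another annotated gene. Promoters are those of RefSeq. An embryo lay far from the others where Dixon's ratio was above 0.625. The embryos are separate, but p-values measure only the spread between them, and embryos of a batch may share a litter.

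Genes were named by rule: the 5 markers, the 20 highest nuclear protein-coding genes, the 3 highest mitochondrial genes and the 5 highest long noncoding genes, the 10 most and 10 least variable, for each list the 3 highest members and those under 1 TPM in every embryo (as counts for long lists), the 10 highest transcription factors, the sex-linked genes, *Prdm10* and the 10 smallest p-values between batches. Other genes were named after their values were seen, and these include further list members given as examples. The members and lists were chosen with earlier results of these data known, and no list was tested. A few genes that the rule would name are not reported here.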

Additional observations from a re-analysis of the deposited data

Results flagged for a closer look

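For 79 values with 6 embryos each, the highest or lowest embryo was compared with the other 5 by Dixon's criterion. It set 9 of them apart, where chance gives about 1 in 20 for embryos that do not differ by batch.

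Control 1 was the embryo set apart in 5 of the 9. It had the highest share of TPM from long noncoding records, 3.51% against 1.03 to 1.3% in the other embryos. Without *AY036118*, the record inside the ribosomal RNA record, a choice made after seeing the data, its share was 1.2%, within the 1.03 to 1.3% of the others. Its *Krt18* was 6.36 TPM against 1.14 to 2.16. Its summed TPM of leukocyte markers was 128.57 against 4.79 to 18.7, that of blood markers 30.73 against 1.71 to 10.4, and that of oviduct epithelium markers 25.15 against 0.29 to 5.83. How far these belong together was not tested.

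The other 4 were in different embryos. *mt-Atp8* was 24372.07 TPM in control 6 and 12124 to 15653 in the others. *Fbxo15* was 5655.42 TPM in control 2 and 3409 to 4130 in the others. The nuclear genes of oxidative phosphorylation summed to 21725.75 TPM in control 3 and 18254 to 19072 in the others. Fibroblast markers summed to 0.29 TPM in control 5, which is 3 counts, and to 0 to 0.03 TPM elsewhere.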

How the results depend on the processing

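Detection changed by less than 1.5 times in every alternative run (5426 to 10253 genes in all 6 embryos). The 100 highest records held 34.3% of expected counts and, without mitochondrial genes, 34.9% of TPM. The median correlation between embryos was 0.826 with a pseudocount of 0.1, 0.937 over all genes above 0, 0.869 by Spearman's method and 0.931 within batches. The biological coefficient of variation was 0.525 without a batch term and 0.582 without the filter on low counts. Genes that differed between batches numbered 1548 by DESeq2, 479 by limma, 1375 without the filter and 9 to 916 when an embryo was left out, against 740. No call of a named gene changed direction, and 175 of 500 comparisons lost the call. Of the 10 most variable genes, 6 to 9 remained when an embryo was left out and 1 among genes with at most 10% of their sequence shared. Of the 10 least variable, 1 to 3 remained when an embryo was left out, 3 among genes with little shared sequence, 2 with the SD over all 6 embryos and 0 on log2 CPM. Of the 20 highest genes, 10 remained by expected counts, which do not correct for length. List medians moved by more than the SD over embryos in 52 of 323 comparisons and gene means in 5 of 288. The cause was not tested. No paired analysis was possible because replicate numbers were given in order within the group and pair no embryos.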
